A study of Mus musculus with 36 samples.

Results

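The genes of the adaptors and kinases through which Toll-like receptors (TLRs) signal were followed in mouse bone marrow-derived macrophages (BMDMs) that received lipopolysaccharide (LPS), the BMAL1 ligand CCM, or both. They are the 10 genes Myd88, Ticam1, Ticam2, Tirap, Irak1, Irak2, Irak3, Irak4, Traf6 and Ly96, found by gene name among the 54532 genes of the count table. Each name matched 1 gene, and the rule that finds them reads names alone.

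TLRs are receptors for microbial products, and TLR4 with its co-receptor MD-2, the product of Ly96, is the receptor for LPS, a component of the cell wall of Gram-negative bacteria. On one branch TIRAP brings MYD88 to the receptor, MYD88 assembles the kinases IRAK4, IRAK1 and IRAK2, and the ubiquitin ligase TRAF6 passes the signal on to NF-kB and MAP kinases. On the other branch TRAM, the product of Ticam2, brings in TRIF, the product of Ticam1, which leads to type I interferon. IRAK-M, the product of Irak3, lacks kinase activity and restrains the MYD88 branch, and it is known for its rise in macrophages after exposure to endotoxin.

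The study asked how CCM, a compound that binds a pocket in the PASB domain of the clock protein BMAL1, acts on macrophages at rest and under inflammatory stimulation. Bone marrow of female C57BL/6 mice aged 13 to 17 weeks was grown with MCSF, either from Bmal1 flox/flox mice (WT, n = 3 replicates) or from LysM-Cre;Bmal1 flox/flox mice (KO, n = 6 replicates), so all groups carried the floxed alleles. For 6 h, cells of both genotypes were given DMSO as vehicle, 100 µM CCM with DMSO, 100 nM LPS with DMSO, or 100 nM LPS together with 100 µM CCM, and 36 libraries of poly(A) RNA were made. Cre was driven by LysM, a promoter of the myeloid lineage, and the sources used here do not say which libraries came from one animal. P-values therefore measure the spread between these libraries.

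Counted read pairs came to 13469262 to 28288923 in a library. The Bmal1 gene itself, listed as Arntl, lay at 7.27 to 9.76 counts scaled to library size (CPM) in WT and 2.97 to 7.74 in KO vehicle libraries, so the genotypes overlapped there, and they differed by -0.34 on the log2 scale (SE 0.26, edgeR adjusted p = 1). With LPS and CCM it lay at 11.5 to 12.9 CPM in WT and 3.94 to 9.32 in KO, with no overlap, while the genotypes overlapped with CCM and with LPS alone. Genotypes are used as labelled, and a count over the whole gene does not check the deleted part. All 8 macrophage markers examined were detected in every library. So were the 6 fibroblast markers examined, whose summed CPM was 488 to 1386 in WT and 521 to 1410 in KO vehicle libraries. Among them Col1a1 was at 122 to 776 CPM and Dcn at 0.864 to 13.6 CPM over all libraries. The part of fibroblast RNA in the results was not tested. The 4 libraries of KO replicate 6 stood apart. Their root mean square deviation from the group median was 1.16 to 1.45 on the log2 scale, against 0.375 to 0.613 in 31 other libraries, and the longest 25% of genes had median deviations of -0.86 to -0.59 and the shortest 25% had 0.53 to 0.61. The LPS with CCM library of KO replicate 5 was next, at 0.701, with -0.33 for long and 0.41 for short genes. Mitochondrial genes held 0.255 to 0.449% of the counts of KO replicate 6 and 0.754 to 1.57% elsewhere. Summed CPM of T and NK cell markers was 1.16 to 3.27 in KO replicate 6 and 0.104 to 0.890 in the other 20 KO libraries, and neutrophil markers gave 1068 to 1163 against 383 to 970, while Ncr1 was at 0 in 19 and Ly6g in 3 of the 36 libraries. The part of these features in the KO results was not tested, and the KO tests are given with and without replicate 6.

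The members lie on separate chromosomes except Myd88 and Tirap, both on chromosome 9, and the positions given here are on GRCm38 with GENCODE release 21. Promoters are shown for Irak2, Myd88 and Irak3, which had the largest changes with LPS, and for Ticam1, which holds the E-box letters CACGTG. The E-box is a motif that BMAL1 and CLOCK bind, and binding at Ticam1 was not examined here. Bases upstream of the transcript start were taken from RefSeq (GRCm38.p6), which held promoters for 8 of the 10 members. They are written in the direction of transcription, with capitals for the IRF or E-box letters. The Myd88 and Ticam1 stretches stop where an annotated exon of the gene begins, which leaves out the last 23 and 19 bases before the RefSeq start. Positions of the letters are counted from that start and not from the end of the printed stretch. In order, the printed stretches lie at chr6:113638217-113638466 (+), chr9:119340042-119340268 (-), chr10:120202131-120202380 (-) and chr17:56276787-56277017 (-). The Myd88 stretch lies inside the interval of the gene in the count table, chr9:119335934-119341411, so the RefSeq start is not the outer end of that interval.
Irak2: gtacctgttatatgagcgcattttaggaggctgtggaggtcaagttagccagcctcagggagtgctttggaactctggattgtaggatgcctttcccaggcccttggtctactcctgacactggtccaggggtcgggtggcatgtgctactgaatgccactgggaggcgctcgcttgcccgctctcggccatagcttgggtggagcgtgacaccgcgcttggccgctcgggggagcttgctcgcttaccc
Myd88: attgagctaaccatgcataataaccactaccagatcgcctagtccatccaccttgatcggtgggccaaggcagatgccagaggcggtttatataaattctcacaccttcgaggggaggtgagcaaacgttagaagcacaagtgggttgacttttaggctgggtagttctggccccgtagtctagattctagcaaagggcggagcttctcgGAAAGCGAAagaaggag
Irak3: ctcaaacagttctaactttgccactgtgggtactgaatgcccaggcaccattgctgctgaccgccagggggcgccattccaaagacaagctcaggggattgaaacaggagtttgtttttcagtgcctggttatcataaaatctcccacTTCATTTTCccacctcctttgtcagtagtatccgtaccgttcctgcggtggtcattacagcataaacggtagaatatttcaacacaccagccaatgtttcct
Ticam1: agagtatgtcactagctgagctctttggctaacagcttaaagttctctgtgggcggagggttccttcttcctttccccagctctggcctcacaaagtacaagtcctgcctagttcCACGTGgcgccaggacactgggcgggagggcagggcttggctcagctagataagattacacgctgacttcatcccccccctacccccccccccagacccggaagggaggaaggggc

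In windows of 250 bases before to 50 bases after each start, on both strands, the IRF letters GAAANNGAA stood in Myd88 at -40 to -32 and, on the opposite strand, in Irak3 at -102 to -94, counted from the transcript start. The E-box CACGTG stood in Ticam1 at -135 to -130 and, at +6 to +11, in the inner of the 2 start sites listed for Irak3. The NF-kB consensus and the AP-1 letters TGANTCA were in none of the 11 member windows. Over 32851 promoters of this length the IRF letters were in 8.56%, CACGTG in 7.15%, TGANTCA in 7.81% and the NF-kB consensus in 4.51%. The matched letters did not overlap each other. These matches are a description of the letters and not of binding.

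LPS moved every member in WT BMDMs. Irak3 rose the most, Myd88 and Irak2 followed, Ticam2, Ly96, Tirap, Ticam1 and Traf6 rose by less, and Irak1 and Irak4 fell. In edgeR's quasi-likelihood test with Benjamini-Hochberg adjustment over all genes, 10 of 10 members passed an adjusted p of 0.05, 8 higher and 2 lower, where 63% of the 14501 genes tested passed, 30.6% higher and 32.4% lower. The median log2 change of the members was 0.89, against -0.05 over all genes tested. Irak4 did not pass with DESeq2 (adjusted p = 0.108) or without WT LPS replicate 1 or 2 or WT vehicle replicate 3 (adjusted p = 0.0552, 0.0731 and 0.0649), and Irak1, Irak4 and Traf6 did not pass in one fit of all 36 libraries (adjusted p = 0.177, 0.113 and 0.396). The summed CPM of 4 dendritic cell markers went from 1.85 to 3.28 with vehicle to 3.53 to 4.31 with LPS, that of 6 B cell markers from 5.36 to 7.31 to 3.88 to 4.31, and that of 7 neutrophil markers from 560 to 604 to 490 to 535, while the dendritic cell marker Siglech was at 0 in 6 of the 36 libraries. Their part in the changes was not tested. In bulk samples fewer cells of a type and less RNA per cell cannot be told apart.

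**Figure D1:**
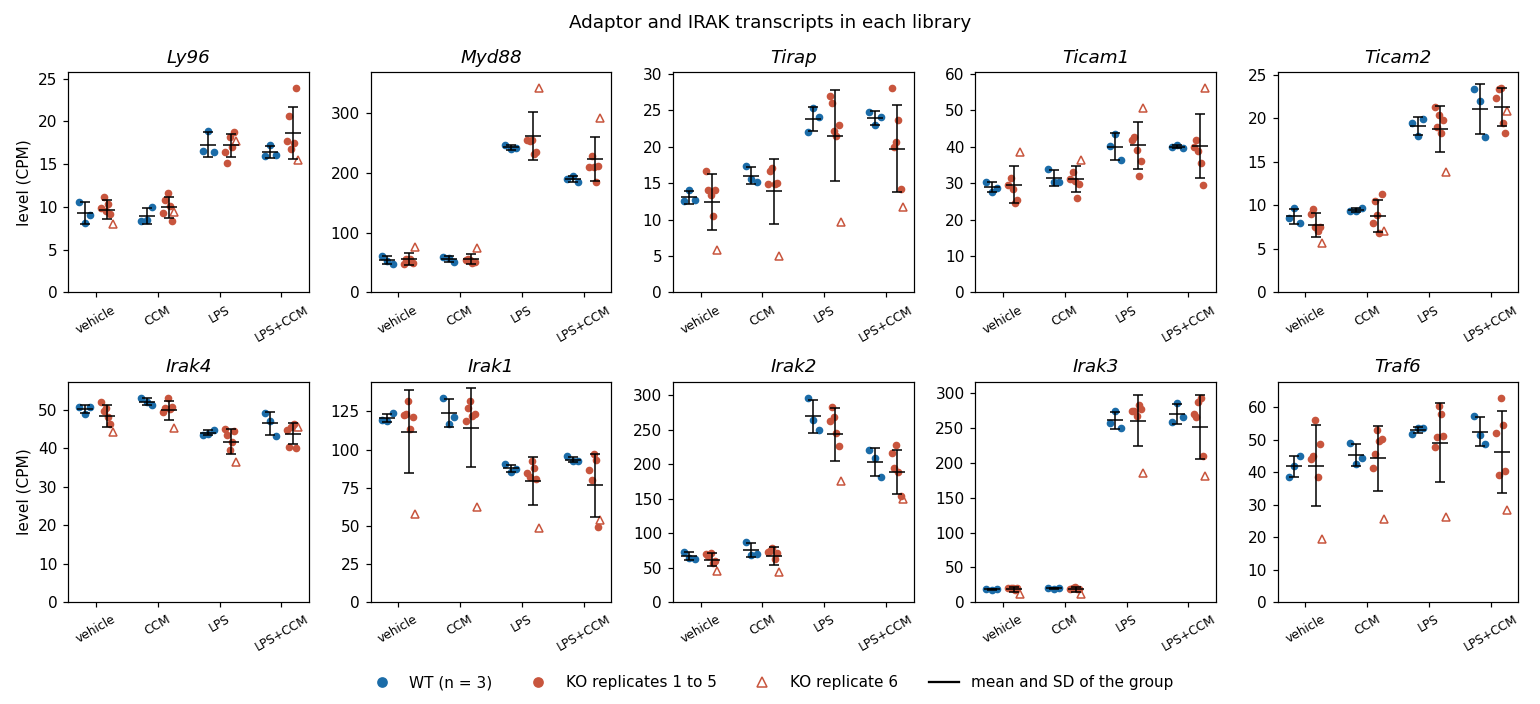
Levels of the 10 members (vertical axes, CPM from 0) in each of the 36 libraries by treatment, with WT in blue, KO in red and KO replicate 6 as open triangles, and bars for the mean and SD of each group. Irak3 went from 17.5 to 19.2 in WT vehicle libraries to 251 to 275 in WT LPS libraries, and the 4 KO replicate 6 points lay above the other KO points for Myd88 and below them for Irak3.

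Irak3 (ENSMUSG00000020227, chr10:120141648-120202130, minus strand), the gene of the inhibitory kinase homolog IRAK-M, was at 19.2, 17.5 and 18.7 CPM in the WT vehicle libraries and at 257, 275 and 251 CPM with LPS. The lowest LPS library thus lay far above every vehicle library. The difference was 3.83 on the log2 scale (SE 0.069, adjusted p = 4.85e-11), which is 14.2-fold. Tmbim4 and Gm47009 on the other strand share exonic bases with Irak3, 192 and 28 of them, and the strand setting of the counting was not given in the sources used here.

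Myd88 (ENSMUSG00000032508, chr9:119335934-119341411, minus strand), the adaptor of nearly all TLRs and of IL-1 family receptors, was at 61.1, 51.8 and 48.0 CPM with vehicle and at 246, 239.5 and 241 CPM with LPS. The LPS libraries lay close together and far above vehicle, with a log2 difference of 2.18 (SE 0.083, adjusted p = 7.33e-09). Acaa1a on the other strand overlaps 11.3% of the exonic bases of Myd88. Irak2 (ENSMUSG00000060477, chr6:113638467-113695026, plus strand), the kinase that sustains the response in later phases, was at 72.8, 64.3 and 61.8 CPM with vehicle and at 296, 264 and 249.2 CPM with LPS. Its difference was 2.03 (SE 0.083, adjusted p = 1.28e-08), again with no overlap between the groups. Gm43963 on the other strand overlaps 4.44% of the exonic bases of Irak2.

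The other adaptors and the LPS co-receptor rose by less. Ticam2 (ENSMUSG00000056130), the bridging adaptor of TRIF, went from 8.56, 9.67 and 7.998 CPM to 19.5, 17.9 and 19.9 CPM, a log2 difference of 1.14 (SE 0.11, adjusted p = 6.82e-06). In GENCODE release 21 it shares 838 of 5792 exonic bases (14.5%) with Tmed7 on the same strand, so counts there could belong to either gene. Its length in the count table is 3928 bases and its interval differs, so whether the shared bases were counted is not known. Ly96 (ENSMUSG00000025779, chr1:16688051-16709611, plus strand), the LPS-binding partner of TLR4, went from 10.6, 8.16 and 9.10 CPM to 16.5, 18.9 and 16.4 CPM, a difference of 0.90 (SE 0.12, adjusted p = 1.08e-04). Both genes had low levels in every library, at most 23.4 and 23.9 CPM over all 8 groups. Tirap (ENSMUSG00000032041, chr9:35184551-35200291, minus strand), the bridging adaptor of MYD88, went from 12.5, 14.03 and 12.6 CPM to 22.0, 25.2 and 24.1 CPM, a difference of 0.87 (SE 0.091, adjusted p = 1.54e-05). Ticam1 (ENSMUSG00000047123, chr17:56269319-56276786, minus strand), which encodes TRIF, went from 30.4, 27.6 and 28.7 CPM to 40.3, 43.5 and 36.3 CPM, a difference of 0.47 (SE 0.081, adjusted p = 5.21e-04). Within each of these 4 genes the lowest LPS library exceeded the highest vehicle library. Gm39318 on the other strand overlaps 9.05% of the exonic bases of Tirap.

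The kinases that start the cascade moved the other way. Irak1 (ENSMUSG00000031392, chrX:74013914-74023918, minus strand) was at 119, 119 and 124 CPM with vehicle and at 90.4, 85.3 and 87.2 CPM with LPS, a log2 difference of -0.46 (SE 0.056, adjusted p = 4.90e-05). Irak4 (ENSMUSG00000059883, chr15:94543643-94581815, plus strand), the kinase that acts first in the MYD88 complex, was at 50.7, 48.9 and 50.8 CPM and then at 43.4, 43.7 and 44.7 CPM, a difference of -0.19 (SE 0.058, adjusted p = 0.0186). The groups did not overlap for either kinase. Twf1 on the other strand overlaps 7.87% of the exonic bases of Irak4. Traf6 (ENSMUSG00000027164, chr2:101678429-101701669, plus strand) went from 38.6, 41.8 and 45.1 CPM to 51.9, 53.4 and 53.5 CPM, a difference of 0.34 (SE 0.073, adjusted p = 0.00218), which did not pass with upper-quartile scaling (0.16, adjusted p = 0.0701). The direction of Traf6 depended on the scaling. With library totals alone, which put the median of all genes at -0.47, Traf6 was at -0.07 (adjusted p = 0.448), and it was the only member to change sign, while Ticam1 was at 0.06 (adjusted p = 0.490).

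**Figure D2:**
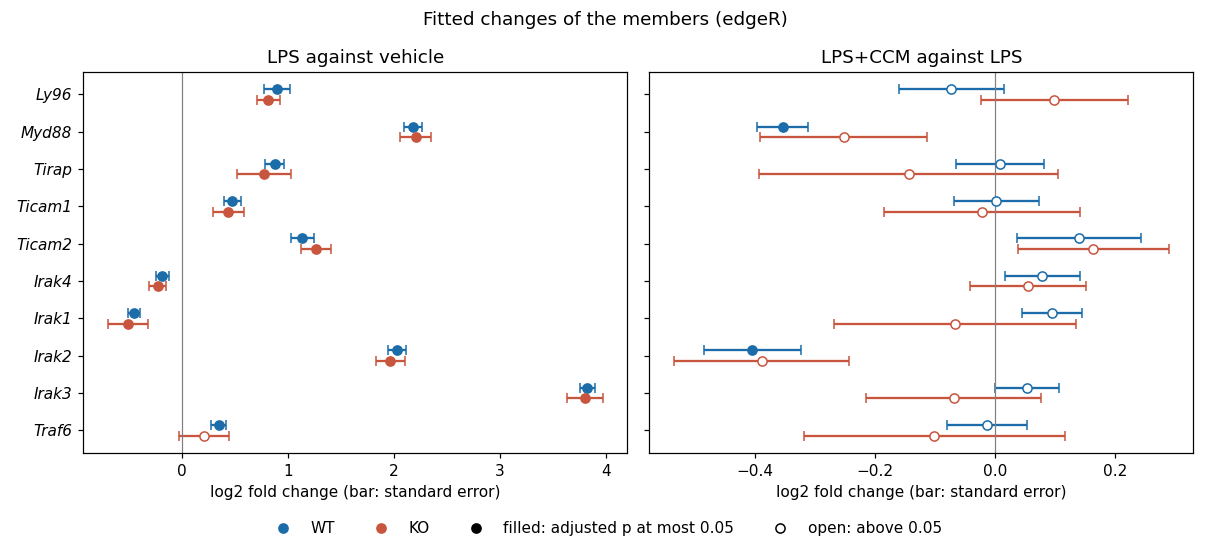
Log2 differences of the 10 members with their standard errors in edgeR's fits for LPS and for CCM under LPS in WT and KO BMDMs, with WT in blue, KO in red and filled symbols for an adjusted p of at most 0.05. The plot shows Irak3 at 3.83 in WT and 3.80 in KO with LPS, and Myd88 at -0.35 and Irak2 at -0.40 in WT when CCM was added to LPS.

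Levels were compared between members per length, as CPM per kilobase of the gene length given in the table, over 3 libraries a group. In WT vehicle libraries Irak1 was highest at 25.6, followed by Myd88 at 20.8 and Irak2 at 15.0. Irak4 at 9.98, Ticam1 at 9.66 and Ly96 at 9.10 lay within the summed SDs of each other, as did Traf6 at 5.30 and Irak3 at 5.02, and Tirap at 2.65 and Ticam2 at 2.23 came last. With LPS the order became Myd88 at 94.1, Irak3 at 71.0, Irak2 at 61.1 and Irak1 at 18.6, the last within the summed SDs of Ly96 at 16.9. Ticam1 at 13.4, Irak4 at 8.75 and Traf6 at 6.71 followed, and Ticam2 at 4.86 and Tirap at 4.82 did not differ beyond their SDs. Irak3 thus moved from the eighth to the second place of the 10 members, and Irak1 from the first to the fourth.

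**Figure D3:**
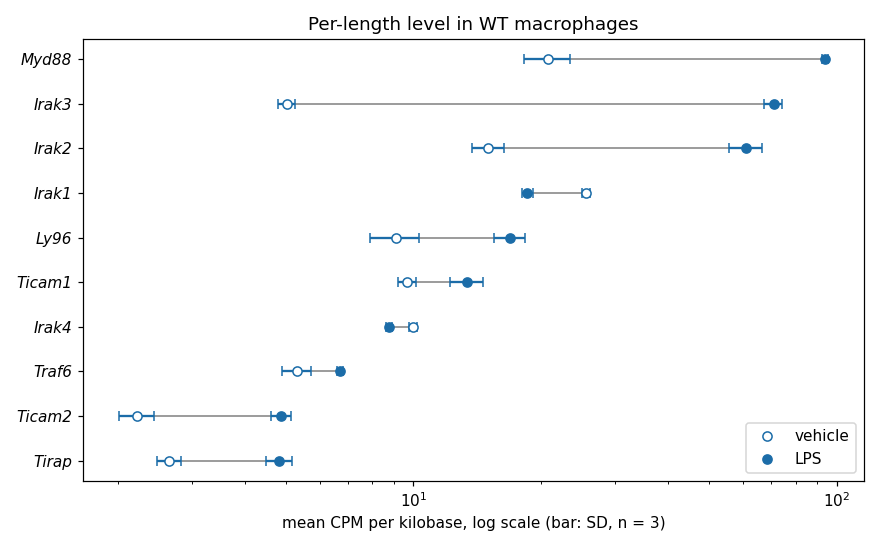
Levels of the 10 members per length, in CPM per kilobase (log axis), as means with SD of 3 WT libraries with vehicle (open) and with LPS (filled), joined by a line for each member. Irak1 was highest with vehicle at 25.6, and Myd88 with LPS at 94.1.

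Ratios within a library show the same change of order as a description, with no test. The per-length ratio of Irak3 to Irak1 was 0.196 ± 0.009 (SD, n = 3) in WT vehicle libraries and 3.83 ± 0.27 with LPS, and in KO it was 0.215 ± 0.018 (SD, n = 6) and 4.28 ± 0.40, or 0.209 ± 0.012 and 4.15 ± 0.28 without replicate 6. The level of the restraining homolog therefore lay below that of Irak1 in every vehicle library and above it in every LPS library. The ratio of Irak2 to Irak1 was 0.588 ± 0.060 with vehicle, 3.29 ± 0.23 with LPS and 2.33 ± 0.20 with LPS and CCM in WT. For Myd88 to Ticam1, the adaptors of the separate branches, it was 2.15 ± 0.20, 7.07 ± 0.66 and 5.50 ± 0.078 in the same order.

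KO BMDMs gave LPS changes of like size for most members. In the KO fit 9 of 10 members passed, 7 higher and 2 lower, where 47.1% of 13648 genes passed, 22.4% higher and 24.7% lower, and the median log2 change of the members was 0.80. Irak3 had 11.01, 20.0 and 20.9 CPM as the lowest, median and highest of 6 vehicle libraries and 186, 275 and 284 CPM with LPS. The lowest value of each group was KO replicate 6, and the log2 difference was 3.80 (SE 0.17, adjusted p = 8.78e-10). Myd88 had 48.2, 54.5 and 76.0 CPM with vehicle and 231, 254 and 341 CPM with LPS, a difference of 2.21 (SE 0.15, adjusted p = 5.05e-08), with KO replicate 6 highest in both groups. Irak2 had 45.4, 63.6 and 71.0 CPM with vehicle and 176, 254 and 283 CPM with LPS, a difference of 1.97 (SE 0.13, adjusted p = 5.78e-08). For these genes and for Ticam2 (1.27, SE 0.14, adjusted p = 6.67e-06) and Ly96 (0.82, SE 0.11, adjusted p = 2.86e-05) the LPS and vehicle libraries did not overlap.

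The smaller KO changes came with overlapping groups. Irak1 differed by -0.51 (SE 0.19, adjusted p = 0.0437), Irak4 by -0.23 (SE 0.081, adjusted p = 0.0318), Tirap by 0.78 (SE 0.26, adjusted p = 0.0243) and Ticam1 by 0.44 (SE 0.15, adjusted p = 0.0252), with overlapping groups and the same direction in 6 of 6 same-numbered pairs for each gene. Over KO replicates 1 to 5 alone the groups of these genes did not overlap. Irak1 lay at 114 to 132 CPM with vehicle and 80.5 to 92.5 with LPS, and Irak4 at 46.3 to 52.1 and 39.5 to 44.8. Tirap lay at 10.5 to 16.6 and 21.5 to 26.9, and Ticam1 at 24.5 to 31.4 and 31.9 to 42.8. Both lower calls were lost with RLE scaling, where Irak1 had an adjusted p of 0.0637 and Irak4 of 0.0698, with no filter (0.0684 and 0.118) and on leaving out any of replicates 1 to 5. Tirap and Ticam1 were not called with upper-quartile scaling (adjusted p = 0.0709 and 0.177). Leaving out any of replicates 1 to 5 kept replicate 6 in the fit. In the fit with the replicate number as a block, adjusted p was 4.32e-06 for Irak1 and 0.00191 for Irak4. It was 6.63e-07 for Tirap and 4.92e-06 for Ticam1. Without KO replicate 6 and without the block, the values in that order were 1.35e-06, 0.00262, 2.92e-05 and 5.72e-04. Traf6 had 19.4, 44.6 and 56.05 CPM with vehicle and 26.2, 50.9 and 60.5 CPM with LPS, a difference of 0.21 (SE 0.23, adjusted p = 0.512), and was higher in 6 of 6 pairs. With the replicate number as a block, where 71.6% of genes passed, the difference of Traf6 was 0.22 (adjusted p = 0.0165), and with the block but without KO replicate 6 the adjusted p was 0.0365. Without KO replicate 6 and without the block it was 0.10, and 9 members passed where 69.4% of genes did. The changes of Irak3, Myd88 and Irak2 without it were 3.77, 2.21 and 1.97. Leaving out replicate 2, 3 or 5 left 5 members past the threshold, where 40, 40.2 and 40.4% of genes passed, and leaving out replicate 1 or 4 left 6, where 39.8 and 40.5% did.

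KO replicate 6 differed from the other KO libraries by member in a way that held across treatments. Myd88 was at 1.39 to 1.45 times and Ticam1 at 1.21 to 1.51 times the mean of the other KO libraries, above all of them in 4 of 4 treatments. Tirap (0.319 to 0.552 times), Traf6 (0.418 to 0.569 times), Irak3 (0.551 to 0.680 times) and Irak2 (0.604 to 0.761 times) lay below all of them in 4 of 4 treatments. Irak1 (0.471 to 0.660 times) and Irak4 lay below in 3 of 4. Gene lengths in the table were 2576 bases for Myd88 and 2992 for Ticam1, and 3676 for Irak3, 4412 for Irak2, 4716 for Irak1, 4929 for Tirap and 7883 for Traf6. Irak4, at 5021 bases, lay at 0.851 to 1.04 times, Ticam2, at 3928 bases, lay at 0.692 to 0.975 times and Ly96, at 1021 bases, at 0.792 to 1.04 times the other libraries. Within replicate 6 the LPS change was in the direction of the other replicates for all 10 members.

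**Figure D4:**
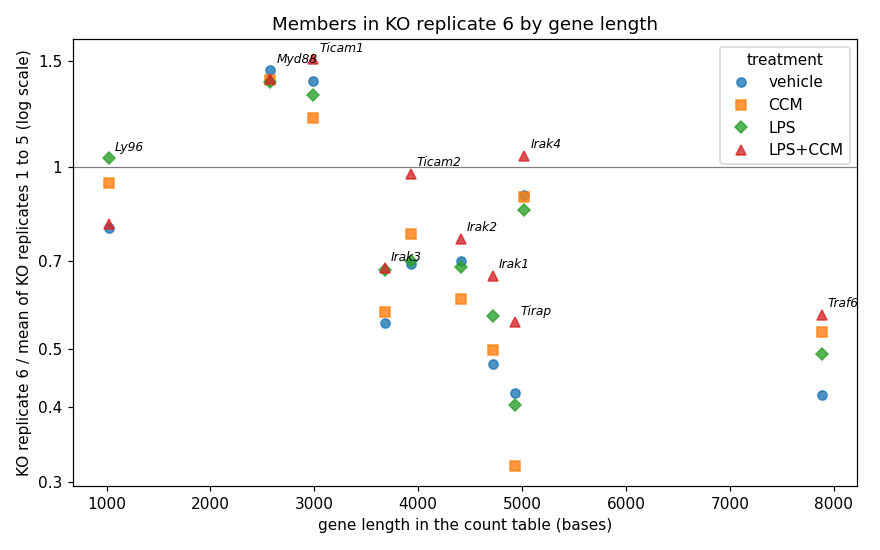
Level of each member in the KO replicate 6 library of each treatment as a ratio to the mean of the other 5 KO libraries (log axis), against gene length in bases, with a symbol for each treatment. Myd88 and Ticam1 lay above 1 in all 4 treatments, and Tirap and Traf6 lay lowest, from 0.319 and 0.418.

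CCM alone moved no member past the threshold in either genotype. In WT 0 of 10 members passed in edgeR, 1 was under an unadjusted p of 0.05 and DESeq2 called 0, where 0.057% of 14024 genes passed. Over all genes 1404 had an unadjusted p under 0.05 and DESeq2 called 241. The member under 0.05 was Tirap, at 12.5, 14.03 and 12.6 CPM with vehicle and 17.3, 15.6 and 15.2 CPM with CCM. Its log2 difference was 0.28 (SE 0.098, adjusted p = 0.386). The groups did not overlap for Tirap, and the same held for Irak3 and Irak4. How often this held over all genes was not examined. The vehicle libraries are those of the LPS comparison. Myd88 differed by 0.04 (SE 0.094), Irak2 by 0.17 (SE 0.097) and Irak3 by 0.10 (SE 0.078), with adjusted p-values of 0.919, 0.605 and 0.699. In KO 0 of 10 members passed in edgeR, 0 were under an unadjusted p of 0.05 and DESeq2 called 0, where 0% of 13799 genes passed, 333 had an unadjusted p under 0.05 and DESeq2 called 42. The KO differences ran from -0.02 for Irak3 to 0.19 for Ticam2, and every group overlapped. Leaving out KO replicate 6 with no block, again 0 members passed in edgeR and 0 were under an unadjusted p of 0.05, where 1.01% of genes passed. The differences ran from -0.03 for Irak3 to 0.19 for Tirap. With the replicate number as a block 0 members passed, and Irak2 was under an unadjusted p of 0.05 (0.12, adjusted p = 0.205), where 429 of 13799 genes passed. With the block and without replicate 6, 0 passed and 3 were under an unadjusted p of 0.05. They were Irak2 (0.14, adjusted p = 0.0663), Ticam1 (0.11, adjusted p = 0.227) and Tirap (0.20, adjusted p = 0.243).

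CCM added to LPS lowered Myd88 and Irak2 in WT BMDMs. Under LPS, 2 of 10 members passed, both lower, where 11.9% of 13579 genes passed and 7.78% were lower. Myd88 was at 246, 239.5 and 241 CPM with LPS and at 189, 194 and 185 CPM with LPS and CCM, a log2 difference of -0.35 (SE 0.043, adjusted p = 4.65e-04). Irak2 was at 296, 264 and 249.2 CPM and at 221, 208 and 181 CPM, a difference of -0.40 (SE 0.081, adjusted p = 0.00931). For both genes the groups did not overlap and all 3 same-numbered pairs went down. The LPS libraries are also those of the LPS comparison above, so the values are not independent of it. When all 36 libraries, those that stood apart included, shared one edgeR fit, 0 members passed, where 0.108% of genes did. In that fit 2 members were under an unadjusted p of 0.05, at -0.36 for Myd88 (adjusted p = 0.929) and -0.41 for Irak2 (adjusted p = 0.930). DESeq2 on the WT groups called 2 members, and 1558 over all genes. With the replicate number as a block the same 2 members passed, where 3220 of 13579 genes did. Their adjusted p in that edgeR fit was 1.61e-06 for Myd88 and 3.75e-07 for Irak2. In the same libraries the summed CPM of dendritic cell markers was 3.53 to 4.31 with LPS and 2.04 to 2.50 with LPS and CCM, and that of 8 macrophage markers was 18145 to 18801 and 19054 to 19196, with no overlap for either list. Their part in the difference was not tested.

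Seen against the LPS change, Myd88 with LPS and CCM stood at 72.0% of the way from the vehicle mean to the LPS mean in WT, with libraries at 69.5 to 74.4%. Irak2 stood at 67.5%, with libraries at 56.6 to 76.0%. Irak3, the member that rose the most, stood at 104%, and its LPS with CCM libraries were at 259, 286 and 266 CPM, which overlapped those with LPS alone (difference 0.05, SE 0.053, adjusted p = 0.600). The adaptors of the TRIF branch also passed no threshold, with Ticam1 at 0.00 (SE 0.071, adjusted p = 0.994) and Ticam2 at 0.14 (SE 0.10, adjusted p = 0.451). Irak1 lay at 95.7, 92.5 and 92.3 CPM, above each LPS library, with a difference of 0.09 (SE 0.049, adjusted p = 0.265). Tirap, Irak4, Traf6 and Ly96 differed by 0.01, 0.08, -0.01 and -0.07, with overlapping groups.

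In KO BMDMs CCM under LPS gave differences of the same sign for Myd88 and Irak2, and neither passed. In edgeR 0 of 10 members passed, 1 was under an unadjusted p of 0.05 and DESeq2 called 0, where 0.112% of 13386 genes passed. Over all genes 1070 had an unadjusted p under 0.05 and DESeq2 called 200. Irak2 had 149, 191 and 227 CPM as the lowest, median and highest of 6 libraries with LPS and CCM, against 176, 254 and 283 CPM with LPS, and overlapped (difference -0.39, SE 0.15, adjusted p = 0.466). Myd88 had 185, 211 and 292 CPM against 231, 254 and 341 CPM (difference -0.25, SE 0.14, adjusted p = 0.722). Both were lower in 6 of 6 same-numbered pairs. Not all same-numbered libraries deviated together in this comparison, with correlations from -0.10 to 0.82. With the replicate number as a block 5.8% of genes passed, and so did Irak2 (adjusted p = 0.0179) and Myd88 (adjusted p = 0.0485). Without KO replicate 6 and with no block, where 1.27% of genes passed, the adjusted p-values were 0.113 for Irak2 and 0.169 for Myd88. With the block and without replicate 6 they were 0.0521 and 0.133. Without KO replicates 5 and 6, a choice made after seeing the data, they were 0.0661 and 0.161 with no block and 0.0257 and 0.0555 with it. The number of all genes called in this comparison moved with the fit, from 0 to 777. As a share of the LPS change, the LPS with CCM libraries stood at 69.6% for Irak2 (48.1 to 91.1%) and at 80.9% for Myd88 (62.4 to 115%), and without KO replicate 6 at 68.2% (46.0 to 84.5%) and 80.7% (68.3 to 90.5%).

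Whether CCM acted differently with and without LPS was tested as an interaction. In WT 0 of 10 members passed in edgeR, 3 were under an unadjusted p of 0.05 and DESeq2 called 2, where 2.09% of 14747 genes passed. Over all genes 2060 had an unadjusted p under 0.05 and DESeq2 called 688. The interaction was -0.59 for Irak2 (SE 0.14, adjusted p = 0.0526), -0.41 for Myd88 (SE 0.11, adjusted p = 0.0840) and -0.29 for Tirap (adjusted p = 0.270). Irak2 passed with DESeq2 (adjusted p = 0.00136), with RLE scaling (0.0411), with no filter (2.91e-06) and with the replicate block (0.00134). Myd88 passed with DESeq2 (0.00667), with no filter (0.00729) and with the block (0.0224), under which 3.72% of genes passed. The number of all genes called also moved with the fit, from 0 to 721, and was 308 in the main fit. In KO 0 of 10 members passed in edgeR, 1 was under an unadjusted p of 0.05 and DESeq2 called 0, where 0.00685% of 14588 genes passed. Over all genes 536 had an unadjusted p under 0.05 and DESeq2 called 12. With the block Irak2 passed in KO (adjusted p = 0.0244), where 0.555% of genes did. For the interactions not all same-numbered libraries deviated together, with lowest correlations of 0.06 in WT and -0.16 in KO. Without KO replicate 6 and without the block 0 members passed in edgeR and 2 were under an unadjusted p of 0.05, at -0.54 for Irak2 (adjusted p = 0.145) and -0.24 for Myd88 (adjusted p = 0.318), where 0.0685% of genes passed.

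No member differed between KO and WT past the threshold. With vehicle 0 of 10 members passed in edgeR, 0 were under an unadjusted p of 0.05 and DESeq2 called 0, where 0% of 14385 genes passed (118 under an unadjusted p of 0.05, 1 by DESeq2). With LPS the member counts were again 0, 0 and 0 and 0% of 13794 genes passed (105 under an unadjusted p of 0.05, 2 by DESeq2). The test of the difference itself gave the same counts of 0 members by edgeR, by unadjusted p and by DESeq2 for genotype by LPS, where 0% of 15093 genes passed (112 under an unadjusted p of 0.05, 0 by DESeq2), and for genotype by CCM under LPS, where 0% of 14546 passed (72 and 0). The genotype by CCM term was 0.12 for Myd88 (SE 0.20) and 0.03 for Irak2 (SE 0.22), beside CCM differences of -0.35 and -0.40 in WT. With KO replicate 6 left out the terms were 0.13 (SE 0.10, adjusted p = 0.961) and 0.02 (SE 0.16, adjusted p = 0.9904), and in all 4 genotype tests 0 members passed in edgeR, 0 were under an unadjusted p of 0.05 and 0% of genes passed. These p-values do not show that the genotypes respond alike.

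The neighbors of the cascade, on lists chosen for their roles, were read beside the members. Among receptors and co-receptors 10 of 15 tested genes rose with LPS in WT, 2 fell and 3 did not pass, where 30.6% of all genes rose and 32.4% fell. Those that rose included Tlr2 (3.68), the receptor of bacterial lipopeptides, and Tlr3 (3.32), the receptor of double-stranded RNA, on the log2 scale. Tlr13 (-1.01), a receptor of bacterial ribosomal RNA, fell, and Tlr5, the flagellin receptor, was at 0 counts in all 3 LPS libraries. Of 16 downstream kinases and ubiquitin enzymes 12 rose, among them Peli1 (2.90) and Ikbke (2.83), and 2 fell, Peli2 (-2.96) and Tab1 (-0.50). Of 8 other restraints 6 rose, among them Tnfaip3 (3.79), which encodes the ubiquitin-editing enzyme A20, and Tnip1 (3.19), and Sigirr (-1.32) fell. Sigirr was low, at means of 1.25 CPM with vehicle and 0.492 with LPS. Of 6 IL-1 family receptor genes, whose products also use MYD88, 3 rose, among them Il1rap (1.34), and 8 of 8 LPS target genes rose, among them Il1b (10.66). The list medians were 0.59 for receptors, 0.74 for downstream enzymes, 1.71 for restraints and 0.50 for IL-1 family receptors, against -0.05 over all genes.

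In KO the LPS counts were 7 higher and 1 lower of 14 receptors, 9 and 1 of 16 downstream enzymes, 5 and 1 of 7 restraints, 1 and 1 of 5 IL-1 family receptors and 8 and 0 of 8 target genes, where 22.4% of genes were higher and 24.7% lower. Without KO replicate 6, where 69.4% passed, they were 10 and 3 of 15, 11 and 3 of 16, 6 and 1 of 7, 1 and 1 of 6 and 8 and 0 of 8. When CCM was added to LPS in WT, 8 of 14 receptors and co-receptors were lower, where 7.78% of all genes were, among them Tlr3 (-0.81), Tlr9 (-0.50) and Cd180 (-0.50), and Tlr13 (0.26) was higher. Of 16 downstream enzymes Peli1 (-0.29) and Tbk1 (-0.25) were lower, and of 6 restraints Cyld (-0.36), Tank (-0.34) and Tnfaip3 (-0.32) were lower. Il1rl1 (-0.94) was lower among 6 IL-1 family receptors, and 7 of 8 target genes were lower, among them Ifnb1 (-2.14), Ptgs2 (-1.32) and Cxcl10 (-1.18). Ifnb1 was low, at means of 1.64 CPM with LPS and 0.367 with LPS and CCM, where Ptgs2 was at 1665 and 668. In KO only Cxcl10 (-1.09, adjusted p = 0.00536) passed of all these lists, as 1 of 8 target genes, where 0.112% of genes passed. Without KO replicate 6, where 1.27% passed, it was 2 of 8 target genes and 1 of 14 receptors. For the WT interaction of LPS with CCM, 3 of 15 receptors passed, Tlr7 (-0.61), Tlr8 (-0.60) and Tlr3 (-0.93), and 1 of 7 restraints, Cyld (-0.38), where 2.09% of genes passed.

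Genes with the pattern most like each member were found by Pearson's r of log2 CPM over the 8 group means, among 11637 genes. The 8 points share treatments and genotypes and mostly separate LPS from the rest, so r is a description and has no p. For Irak3 these were Cd38 (0.9998), Acsl1 and Mcoln2 (0.9996 each), and 733 genes were above 0.99. For Myd88 they were Shisa5, 4933412E12Rik and Apol9b, and for Irak2 Dcp2, Kdm4a and Ppm1k, each with r = 0.999, while 691 and 464 genes were above 0.99. For Ticam1 they were Ikbkb (0.998), Slc7a11 (0.997) and Txnrd1 (0.996), for Ticam2 Rhoq, Vps37a (0.998 each) and Mtf2 (0.996), and for Tirap Trps1 (0.996), Ammecr1l and Sec23a (0.995 each). For Irak1 they were Firre (0.998), Map4k2 and Fam129a (0.997 each), for Irak4 Kdm1b (0.996), Ubxn7 and Tbc1d12 (0.995 each), and for Ly96 Ankrd66 (0.999), Psma6 and Clec2d (0.998 each). Traf6 had the least company, with Rhbdd1 (0.9896), 1700071M16Rik (0.986) and Smcr8 (0.984) and 0 genes above 0.99.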

How the data were processed

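The data are RNA-seq of 36 BMDM libraries. The authors enriched poly(A) RNA, used fastp for trimming, HISAT2 2.0.5 for alignment to mm10 and featureCounts 1.5.0-p3 for counting pairs on genes, per the submitters' processing notes and the paper's methods. The deposited values are raw counts per gene without normalization, for 54532 genes with their lengths, and 0 of 36 count columns were left out. The strand setting was not given in the sources used here.

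Counts were tested with edgeR 4.0.16 in R 4.3.3 (filterByExpr, TMM, glmQLFit, glmQLFTest, no block), each comparison on its own groups and over all genes, two-sided, with Benjamini-Hochberg adjustment at 0.05. Standard errors are the log2 fold change over the root of F. CPM use library totals times TMM factors over all 36 libraries. Interactions were terms of such fits. The script was tested on simulated counts. Totals were 13469262 to 28288923, and libraries of a group differed by more than counting noise (chi-square per degree of freedom at least 4.08).

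All members were named. From each list up to 3 called genes in each direction with the largest change were named for LPS and CCM under LPS in WT, and the genes of like pattern by their correlation. Listed genes named in KO or for the interaction were chosen after their values were seen. The members, lists and tests were chosen with earlier results of these data known. Libraries were grouped by the genotype and treatment labels. The numbers of replicates do not come with a statement that one number marks one animal. Same-numbered libraries deviated together (each correlation over 0.1) for LPS in KO (0.296 to 0.836), CCM in KO (0.332 to 0.846) and CCM under LPS in WT (0.152 to 0.361), and not in every pair elsewhere. Alternatives were DESeq2 1.42.0, RLE, upper-quartile and total-count scaling, no filter, the replicate block, all libraries in 1 fit and leaving out each library. Leaving out KO replicate 6 together with the block, or KO replicates 5 and 6, was chosen after seeing the data. Motifs were sought as letters in RefSeq promoters of GRCm38.p6. Protein sequences were not used here.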

Additional observations from a re-analysis of the deposited data

Results flagged for a closer look

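In the 40 sets of 1 member in 1 KO group of 6 libraries, 12 had a library whose gap to the nearest other was above Dixon's 95% critical value, and each was KO replicate 6. Chance flags about 1 in 20 sets (5%), and the sets share the same 4 libraries. Myd88 was high, at 76.0 CPM with vehicle, 73.5 with CCM and 341 with LPS, where the nearest libraries were at 55.9, 55.8 and 255. Irak1 was low, at 57.7, 62.0 and 48.4 CPM, with the nearest at 114, 119 and 80.5. Irak3 was low, at 11.01, 11.3 and 186 CPM, with the nearest at 18.1, 18.7 and 267. Tirap was low with CCM at 5.01 CPM and with LPS at 9.62 CPM, with the nearest at 14.9 and 21.5. Traf6 was low with LPS at 26.2 CPM, with the nearest at 47.7. Their part in the KO results was not tested beyond the fits without replicate 6.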

How the results depend on the processing

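Of 1800 log2 values of members under the alternatives, 1614 kept their direction and their side of the threshold, 130 changed sign with no call in either fit, 37 lost the call, 18 gained it and 1 reversed, Traf6 with LPS in WT on total counts (-0.067). The number of members called moved by over 1.5 times in 5 comparisons. For LPS in KO it was 5 to 9 when 1 replicate was left out. For CCM under LPS in WT it was 0 with all 36 libraries in 1 fit. For CCM under LPS in KO it was 2 with the replicate block and 1 with the block and no KO replicates 5 and 6. For LPS by CCM in WT it was 2 with DESeq2, 1 with RLE, 2 with no filter, 2 with the block and 0 to 2 with 1 replicate left out, where leaving out WT vehicle replicate 1 gave 2 and WT LPS with CCM replicate 1 gave 1. For LPS by CCM in KO it was 1 with the block, also without KO replicate 6. The replicate block also called 10 members for LPS in KO, Traf6 being the one gained. The cause was not tested. Total-count scaling put the median of all genes at -0.47 in WT and -0.44 in KO with LPS. Over all genes the calls ranged from 5644 to 10611 for LPS in WT and from 5429 to 10023 in KO, from 17 to 3220 and 0 to 777 for CCM under LPS, from 0 to 377 and 0 to 729 for CCM alone, and from 0 to 721 and 0 to 81 for LPS by CCM. No alternative varied the depth.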
